A study of Mus with 15 samples.

Results

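Mature regulatory T cells (Tregs) of the mouse thymus were compared with the CD25+ cells from which some of them are thought to arise, by RNA sequencing of 3 sorted libraries of each kind out of 15 in the series. The 6 libraries were chosen by their sort gate alone. All cells came from 6-week-old female mice, C57Bl/6 crossed to Foxp3-GFP, in which a fluorescent protein reports FOXP3. The thymus was dissociated mechanically and depleted of CD8-bearing cells with magnetic beads. Both gates were then sorted as live CD4+ CD8- cells bearing a T cell receptor (TCR, stained by its beta chain) and lacking BST2 and CD73. BST2 is a membrane protein induced by interferon, and CD73 is an ecto-enzyme carried by many older T cells. Within that population CD25+ progenitors carried CD25, a chain of the receptor for IL-2, but no FOXP3, while mature Tregs had both. The gates conventional CD4 single-positive (conventional CD4SP, without CD25 and FOXP3) and FOXP3lo progenitors (low FOXP3 without CD25) had 3 libraries each and were kept in the model. The 3 Bst2+ libraries were left out of it. The replicates, numbered 40, 42 and 43, are 3 biological replicates of 1 sort, and the labels do not say whether each is a mouse or a pool, so the p-values speak only of the spread among these libraries, part of which may be technical.

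Tregs restrain other T cells, and the transcription factor FOXP3 holds their identity. In the thymus they are selected from CD4 single-positive cells whose receptors bind self peptides strongly. Strong TCR signals, helped by CD28 and by receptors of the TNF receptor superfamily, induce CD25 in progenitors that can also be deleted by the death protein BIM. IL-2, acting through CD25 and STAT5, then induces FOXP3. Maturing single-positive thymocytes shut off the recombinase and other immature genes, gain interferon response genes and MHC class I, and acquire the receptors that let them leave the thymus. CD25 and FOXP3 set the gates, so Il2ra and Foxp3 check the sort and are not findings.

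The 6 libraries held between 12597114 and 19016884 assigned counts. Levels below are CPM, counts scaled to library size by TMM, in the order of libraries 40, 42 and 43. Differences are log2 fold changes ± standard error, positive where mature Tregs were higher, with Benjamini-Hochberg adjusted p-values from edgeR's quasi-likelihood test over 15648 genes. A gene was called at an adjusted p under 0.05. In all 5114 genes were called, 32.7% of those tested, with 2489 (15.9%) higher and 2625 (16.8%) lower in mature Tregs. Of these, 732 (4.68% of those tested) were over 2-fold higher and 875 (5.59%) over 2-fold lower. The 3 libraries of one gate lay wholly outside those of the other for 41.3% of genes (mature Tregs above for 19.8% and below for 21.5%). The median log2 fold change of all genes was -0.01 and the median size of a change, regardless of sign, was 0.40. Fitting the 3 Bst2+ libraries as well left 2096 calls, and a test against a fold of 1.5 left 1338. Mitochondrial ribosomal RNA, read here as a sign of RNA quality, took 9.73 ± 0.18% of counts in CD25+ progenitors and 10.7 ± 0.42% in mature Tregs (SD, n = 3). The 15 mitochondrially encoded genes summed to 100700 to 104700 CPM and 115600 to 128200 CPM, with 4 higher and 1 lower. Mature Tregs had the highest mean of the 4 gates for 13 of them, against 22.6% of all genes. The part of this in the differences that follow was not tested. In bulk RNA, fewer cells of a type and less RNA per cell cannot be told apart, which touches every difference that follows.

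The gate genes matched the labels. Foxp3 (ENSMUSG00000039521, GRCm38 chromosome X, 7573644 to 7595245) was at 4.21, 1.83 and 3.62 CPM in CD25+ progenitors and at 535, 616 and 651 CPM in mature Tregs. Il2ra (ENSMUSG00000026770, GRCm38 chromosome 2, 11642807 to 11693193) was at 296, 283 and 292 CPM in CD25+ progenitors, already high, and at 1162, 1183 and 1125 CPM in mature Tregs. The libraries did not overlap for either gene, and the log2 differences were 7.57 ± 0.20 for Foxp3 (adjusted p = 2.75e-12) and 2.00 ± 0.07 for Il2ra (adjusted p = 3.60e-24). Nt5e, which encodes CD73, was low in both gates but higher in mature Tregs, at 12.9, 9.31 and 12.2 CPM against 3.41, 3.70 and 4.15 (log2 1.61 ± 0.36, adjusted p = 3.81e-04), though not with the Bst2+ libraries in the fit (adjusted p = 0.433). Cd4 fell by 0.36 ± 0.06 on the log2 scale (adjusted p = 8.77e-06). Cd8a was at 11.3, 17.9 and 24.2 CPM in CD25+ progenitors and 3.51, 9.03 and 9.56 in mature Tregs, a difference of -1.26 ± 0.44 (adjusted p = 0.0458) that just passed. It was no longer called without mature Treg replicate 40 (log2 -0.94), 42 (-1.43) or 43 (-1.51), or without CD25+ progenitor replicate 42 (-1.26) or 43 (-0.98). The call was also lost without conventional CD4SP replicate 42 or FOXP3lo progenitor replicate 40, 42 or 43. With limma-voom (adjusted p = 0.145) and with the Bst2+ libraries in the fit (adjusted p = 0.174) Cd8a was not called either. Bst2 (0.10 ± 0.20), Cd8b1 (-0.05 ± 0.17), Trbc1 (-0.06 ± 0.08) and Trbc2 (-0.02 ± 0.08) were not called, with adjusted p-values of 0.753, 0.874, 0.619 and 0.904.

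Mature Tregs carried most of the genes that mark Tregs at several times the level of their CD25+ progenitors, but not all of them. Gpr83, an orphan receptor used as a Treg marker (ENSMUSG00000031932, GRCm38 chromosome 9, 14860210 to 14870789), was at 12.4, 14.9 and 11.1 CPM in CD25+ progenitors and 212, 202 and 189.6 CPM in mature Tregs. Nrp1, a semaphorin co-receptor (ENSMUSG00000025810, GRCm38 chromosome 8, 128358604 to 128503363), was at 11.2, 8.16 and 10.8 CPM and 113, 116 and 123 CPM. Every mature library lay far above every progenitor library for both, a difference of 15.7-fold for Gpr83 (log2 3.97 ± 0.11, adjusted p = 6.64e-28) and 11.7-fold for Nrp1 (log2 3.55 ± 0.14, adjusted p = 1.33e-22). Both markers, like Foxp3, were high in the gate labelled mature Treg. Flicr, a long noncoding RNA of the Foxp3 locus, was at 0.186, 0.913 and 0.106 CPM in progenitors and 20.5, 19.5 and 23.9 in mature Tregs, 50.4-fold higher (adjusted p = 1.92e-15). Its span (chromosome X, 7573600 to 7581027) overlaps that of the gate gene Foxp3. The value is therefore to be read with care and is not independent of the sort.

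Among 29 Treg signature genes 27 could be tested, and 20 were higher (74.1%) and 1 lower (3.7%), against 15.9% and 16.8% of all genes. Their median log2 fold change was 1.99. Ctla4, the inhibitory receptor that competes with CD28 for its ligands, was at 33.3, 21.2 and 29.2 CPM against 215, 179 and 209 CPM in mature Tregs (log2 2.85 ± 0.11, adjusted p = 3.22e-22). Izumo1r, which encodes folate receptor 4, was 5.95-fold higher (adjusted p = 2.27e-22). Tnfrsf18, encoding GITR, was 2.08-fold higher (adjusted p = 6.73e-12), and Swap70 was 1.61-fold higher (adjusted p = 9.47e-10). In conventional cells these last 2 averaged 53.3 and 36.1 CPM, below the 143 and 168 CPM of progenitors.

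Of the 5 Ikaros family genes 2 were higher (40%) and 1 lower (20%), against 15.9% and 16.8% of all genes. Only 1 was higher with the Bst2+ libraries in the fit or without CD25+ progenitor replicate 43. Ikzf4, which encodes Eos, a partner of FOXP3, was at 81.99, 80.9 and 95.8 CPM in CD25+ progenitors and 191, 202 and 232 CPM in mature Tregs, log2 1.27 ± 0.09 higher (adjusted p = 2.04e-15). Ikzf2, which encodes Helios, was at 1108, 1197 and 1186 CPM in CD25+ progenitors and 1137, 1060.5 and 1270.2 CPM in mature Tregs. The libraries of the gates overlapped and the difference was -0.01 ± 0.07 (adjusted p = 0.934), while conventional cells averaged 95.7 CPM and FOXP3lo progenitors 599 CPM. Both gates were thus the high end of the 4 for Helios RNA. Ikzf3, encoding Aiolos, was not called either (0.07 ± 0.07, adjusted p = 0.509), and Ikzf1, encoding Ikaros itself, fell by 0.33 ± 0.06 (adjusted p = 3.10e-05). Icos, a costimulator of the CD28 family, went the other way from most of the signature, at 68.9, 73.5 and 81.5 CPM in progenitors and 53.6, 48.2 and 53.5 CPM in mature Tregs (log2 -0.53 ± 0.10, adjusted p = 7.13e-05).

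**Figure D1:**
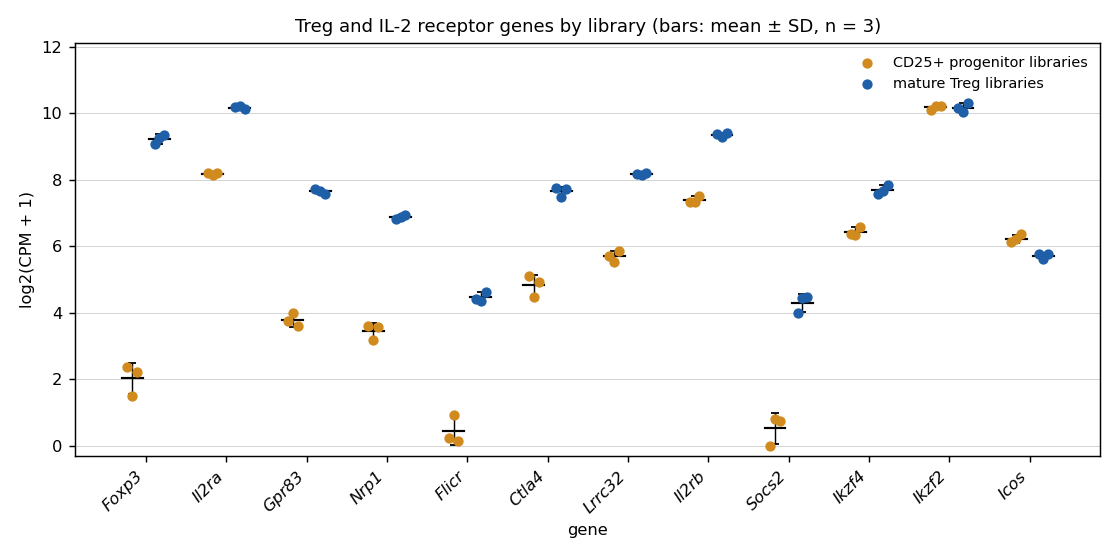
Levels of 12 Treg and IL-2 receptor genes in the 3 CD25+ progenitor and 3 mature Treg libraries, as log2(CPM + 1), with the mean and SD of each gate. The gates separate for Foxp3, Gpr83, Nrp1, Flicr, Ctla4, Lrrc32, Il2rb, Socs2 and Ikzf4, while Ikzf2 overlaps and Icos is lower in mature Tregs.

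Genes of the IL-2 receptor and STAT5 pathway were higher in mature Tregs as a group, although both gates carry CD25. Of 26 tested members of this list (28 in all), 20 were higher and none lower, with a median log2 fold change of 0.88, against 15.9% and 16.8% of all genes. Il2rb, the beta chain that signals with CD25, was at 161, 160.1 and 182 CPM in CD25+ progenitors and 665, 626 and 681 CPM in mature Tregs (log2 1.97 ± 0.11, adjusted p = 5.24e-12). The shared gamma chain gene Il2rg was not called (0.02 ± 0.07, adjusted p = 0.874). Jak3, which binds the gamma chain, was higher by 0.51 ± 0.08 (adjusted p = 3.01e-06). The transcription factor genes Stat5a and Stat5b were higher by 0.63 ± 0.07 (adjusted p = 1.58e-09, and 0.159 with the Bst2+ libraries in the fit) and 0.41 ± 0.06 (adjusted p = 1.75e-06).

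Several known targets of STAT5 were among the higher genes. Socs2, a feedback inhibitor of cytokine receptors, was at 0, 0.760 and 0.692 CPM in progenitors and 14.9, 20.8 and 21.4 CPM in mature Tregs, 37.5-fold higher (adjusted p = 3.38e-11). It was also under 1 CPM on average in conventional cells and FOXP3lo progenitors, at 0.193 and 0.435. Cish, the feedback inhibitor CIS, was at 77.97, 72.5 and 82.2 CPM and 212, 191 and 207 CPM (log2 1.39 ± 0.08, adjusted p = 3.57e-17). The survival kinase gene Pim1 was 5.25-fold higher (adjusted p = 2.19e-19), and Ccnd2, encoding cyclin D2, 1.78-fold higher (adjusted p = 3.93e-14). In mean level mature Tregs were the highest of the 4 gates for 19 of the 26 genes, against 22.6% of all genes tested.

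RNA for IL-2 itself was counted in the CD25+ gate and in none of the other 3. Il2 (ENSMUSG00000027720, GRCm38 chromosome 3, 37120523 to 37125959) was at 1.36, 1.37 and 1.70 CPM in CD25+ progenitors, 81 counts over the 3 libraries, and had 0 counts in every mature Treg, conventional and FOXP3lo library. With a floor of 3 counts over a gate it was at least 20.6-fold lower in mature Tregs (adjusted p = 0.00255). The level is low, and intervals and floors of counts cover counting error only.

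**Figure D2:**
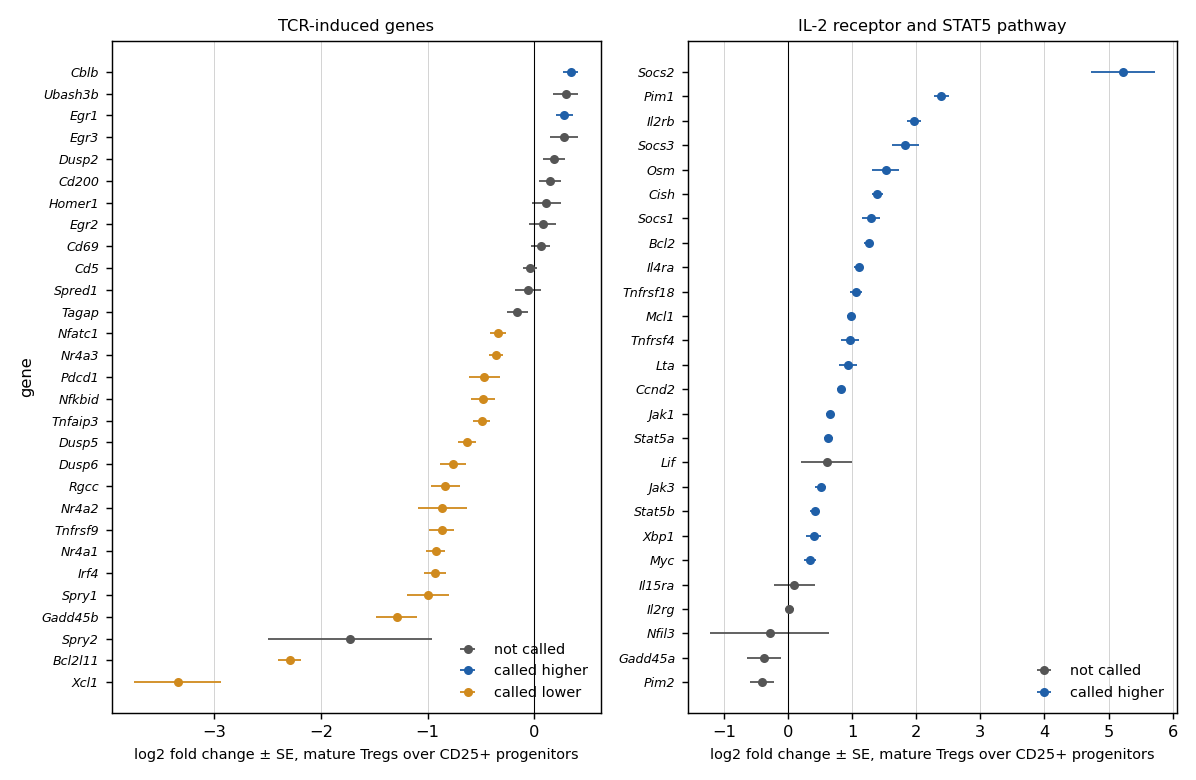
Log2 fold changes of mature Tregs over CD25+ progenitors with standard errors for the tested TCR-induced genes (left) and IL-2 receptor and STAT5 pathway genes (right), coloured by call. Of the TCR-induced genes 16 of 29 lie below 0 and are called, and of the IL-2 and STAT5 genes 20 of 26 lie above 0 and are called.

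Many genes induced by strong TCR signals were lower in mature Tregs, while Cd5, Cd69 and Egr2 were not called. Of 29 tested TCR-induced genes (30 in all), 16 were lower (55.2%) and 2 higher (6.9%), against 16.8% and 15.9% of all genes. Their median log2 fold change was -0.47. With the Bst2+ libraries in the fit 10 were lower and 1 higher. Nr4a1, which encodes the immediate TCR reporter NUR77, was at 340.4, 382 and 461 CPM in CD25+ progenitors and 204, 235 and 185 CPM in mature Tregs (log2 -0.92 ± 0.09, adjusted p = 1.08e-09). Irf4, a factor that scales with signal strength, was at 111, 113 and 110.3 CPM and 57.3, 51.8 and 66.1 CPM (log2 -0.93 ± 0.11, adjusted p = 2.48e-09). Dusp5, a phosphatase that acts on ERK, was 1.55-fold lower (adjusted p = 2.00e-07) and Nr4a3 1.28-fold lower (adjusted p = 3.46e-05). The libraries of the gates did not overlap for any of these 4 genes.

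Cd5, a surface protein that records TCR affinity, was at 374, 448 and 452 CPM in CD25+ progenitors and 406, 421 and 413 CPM in mature Tregs (-0.04 ± 0.07, adjusted p = 0.722). Cd69, an activation marker that holds cells in the thymus, was at 105, 108 and 99.6 and 103, 100.4 and 122 CPM (0.06 ± 0.09, adjusted p = 0.654), and the early TCR target Egr2 was not called (0.08 ± 0.13, adjusted p = 0.709). The libraries of the gates overlapped for all 3. Egr1 was higher by 0.28 ± 0.08 (adjusted p = 0.00562), a call that was lost without CD25+ progenitor replicate 42, at 0.23.

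Genes of the TCR signalling machinery were mixed, with a median log2 fold change of -0.05. Of 28 tested, 9 were higher (32.1%) and 6 lower (21.4%), against 15.9% and 16.8% of all genes. With the Bst2+ libraries in the fit 4 were higher. Zap70, the kinase recruited to the receptor, was at 169, 175 and 218 CPM in progenitors and 109, 124 and 123 CPM in mature Tregs (log2 -0.66 ± 0.08, adjusted p = 1.74e-08). The adaptor gene Lat, which acts directly after ZAP70, fell by 0.54 ± 0.07 (adjusted p = 1.15e-08), and the phospholipase gene Plcg1 fell by 0.54 ± 0.06 (adjusted p = 3.00e-09). Prkcq, a kinase that links the receptor to NF-kB, was higher by 0.60 ± 0.06 (adjusted p = 9.41e-11), and the TEC kinase gene Txk by 0.77 ± 0.09 (adjusted p = 1.81e-09). Lck (-0.04 ± 0.06, adjusted p = 0.711) and Themis (-0.16 ± 0.07, adjusted p = 0.0869) were not called.

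Of 15 tested TNF receptor superfamily genes (17 in all), 6 were higher (40%) and 3 lower (20%), against 15.9% and 16.8% of all genes. With the Bst2+ libraries in the fit 3 were higher and 1 lower. The costimulators with a known part in Treg selection went both ways. Tnfrsf4, encoding OX40, was at 159.8, 179 and 234 CPM in CD25+ progenitors and 364, 356 and 398 CPM in mature Tregs (log2 0.96 ± 0.14, adjusted p = 1.25e-04). Tnfrsf25, the receptor DR3, was higher by 1.36 ± 0.14 (adjusted p = 1.63e-10). Tnfrsf9, encoding 4-1BB, was at 377, 421 and 475 CPM in progenitors and 229, 214 and 255 CPM in mature Tregs. It fell by 0.87 ± 0.12 (adjusted p = 1.00e-05), and both gates stood well above the 36.8 CPM of conventional cells.

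Among 27 NF-kB subunits and regulators, 14 were higher (51.9%) and 2 lower (7.41%), against 15.9% and 16.8% of all genes. With the Bst2+ libraries in the fit 9 were higher and 1 lower. Rel, the c-Rel subunit that acts on the Foxp3 gene, was at 225, 222 and 218 CPM in progenitors and 429, 426 and 458 CPM in mature Tregs (log2 0.98 ± 0.07, adjusted p = 3.19e-15). Nfkb1 (-0.08 ± 0.06, adjusted p = 0.395) and Nfkb2 (-0.01 ± 0.08, adjusted p = 0.971) were not called. The higher members included Nfkbia, an inhibitor of NF-kB (0.77 ± 0.07, adjusted p = 1.99e-11), Traf1 (1.36 ± 0.08, adjusted p = 2.07e-17), Nfkbiz (1.42 ± 0.08, adjusted p = 8.19e-18) and the survival gene Birc3 (0.98 ± 0.07, adjusted p = 2.15e-14).

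Among BCL-2 family genes, the BH3-only genes Bcl2l11 and Bmf were lower in mature Tregs and Bcl2 and Mcl1 were higher. Bcl2l11, which encodes BIM, the BH3-only protein that deletes self-reactive thymocytes (ENSMUSG00000027381, GRCm38 chromosome 2, 128126038 to 128162547), was at 227, 292 and 273 CPM in CD25+ progenitors and 54.1, 61.2 and 46.8 CPM in mature Tregs. Bmf, another BH3-only gene, was at 20.9, 24.4 and 22.7 CPM and 3.60, 5.42 and 1.04 CPM. Neither overlapped between gates, and the differences were 4.89-fold for Bcl2l11 (log2 -2.29 ± 0.11, adjusted p = 6.17e-17) and 6.81-fold for Bmf (log2 -2.77 ± 0.36, adjusted p = 7.17e-07). Not all BH3-only genes went this way. Pmaip1, encoding NOXA, was at 1.86, 2.84 and 1.38 CPM in progenitors and 3.10, 3.89 and 3.97 CPM in mature Tregs. It was not called (log2 0.85 ± 0.51, adjusted p = 0.219), though every mature library lay above every progenitor library.

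Bcl2, the survival gene that BIM antagonises, was at 179.6, 162 and 152 CPM in progenitors and 407, 389 and 386 CPM in mature Tregs (log2 1.26 ± 0.07, adjusted p = 2.09e-18). Mcl1, a second survival gene, was at 429.6, 396 and 402 and 838, 809 and 772 CPM (log2 0.98 ± 0.06, adjusted p = 1.04e-16). Both were higher in each mature library than in each progenitor library. Bcl2l1, encoding BCL-XL, fell by 0.43 ± 0.09 (adjusted p = 1.36e-04). In the whole list of 27 tested apoptosis regulators (30 in all), 9 were higher (33.3%) and 7 lower (25.9%), against 15.9% and 16.8% of all genes. Casp8 was higher by 1.24 ± 0.07 (adjusted p = 2.11e-17) and its inhibitor Cflar by 0.56 ± 0.07 (adjusted p = 7.60e-09). With the Bst2+ libraries in the fit 4 of the list were lower.

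Mature Tregs had higher RNA for nearly the whole set of interferon-stimulated genes tested, though the gate excluded BST2, itself induced by interferon. Of 65 tested members (67 in all), 59 were higher (90.8%) and none lower, against 15.9% and 16.8% of all genes. Their median log2 fold change was 0.95. Ifit3, an antiviral effector, was at 4.77, 4.51 and 3.35 CPM in CD25+ progenitors and 26.9, 30.5 and 25.04 CPM in mature Tregs (log2 2.71 ± 0.18, adjusted p = 1.23e-15). Irf7, a factor that amplifies the interferon response, was at 53.8, 48.8 and 56.7 CPM and 94.3, 89.7 and 104 CPM, higher by 0.86 ± 0.09 (adjusted p = 2.06e-10). Gbp7, a guanylate-binding protein, was 3.99-fold higher (adjusted p = 1.21e-21), and Ifi203 and Ifi209, of a family of nucleic acid sensors, were 3.69-fold (adjusted p = 1.05e-21) and 2.99-fold (adjusted p = 7.47e-21) higher. In mean level CD25+ progenitors were the lowest of the 4 gates for 62 of the 65 genes, against 29.6% of all genes, and mature Tregs were the highest for 13.

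Genes of late single-positive cells and of exit from the thymus were higher too. Among 30 tested (31 in all), 27 were higher (90%) and none lower, against 15.9% and 16.8% of all genes. Their median log2 fold change was 1.31. S1pr1, the receptor that senses the exit signal sphingosine 1-phosphate, was at 86.9, 69.1 and 72.5 CPM in CD25+ progenitors and 517, 506 and 499 CPM in mature Tregs. The gates were far apart, and S1pr1 was 6.67-fold higher (adjusted p = 1.95e-27). Klf2, the factor that induces S1pr1, was at 111, 104 and 109 CPM and 279, 297 and 291 CPM (log2 1.42 ± 0.07, adjusted p = 1.22e-19), and Foxo1, which acts upstream of Klf2, was higher by 0.73 ± 0.06 (adjusted p = 3.23e-12).

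Gimap3, of a family of GTPases that keep mature T cells alive, was 5.13-fold higher (adjusted p = 3.20e-27). H2-Q7, a nonclassical MHC class I gene, was 5.10-fold higher (adjusted p = 6.09e-20), a value to read with care because near-identical H2-Q genes can share reads. Ccr7, the chemokine receptor of cells that have entered the medulla, was higher by only 0.56 ± 0.08 (adjusted p = 1.80e-07). For 28 of the 30 genes the CD25+ gate had the lowest mean of the 4 gates, and mature Tregs had the highest for 9.

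**Figure D3:**
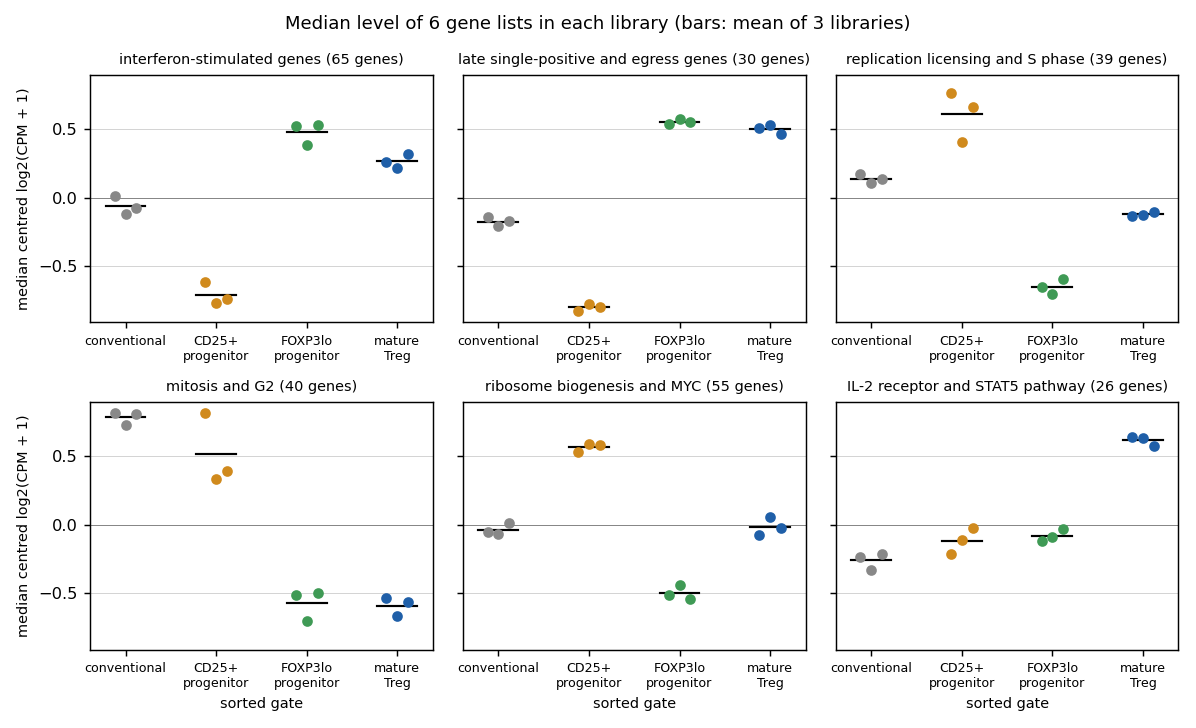
Median level of 6 gene lists in each library of 4 sorted gates, as log2(CPM + 1) less each gene's mean over the 12 libraries, with the mean of 3 libraries as a bar. For interferon-stimulated genes the CD25+ libraries lie between -0.77 and -0.61, the mature libraries between 0.22 and 0.32 and the FOXP3lo libraries between 0.38 and 0.53. For the mitosis list the CD25+ libraries lie between 0.34 and 0.82, the mature libraries between -0.67 and -0.53 and the FOXP3lo libraries between -0.70 and -0.50.

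Genes of immature thymocytes were more often lower than higher. Of 30 tested, 16 were lower (53.3%) and 7 higher (23.3%) in mature Tregs, against 16.8% and 15.9% of all genes. Their median log2 fold change was -0.50. The count of higher members was 4 without CD25+ progenitor replicate 40 or mature Treg replicate 42, and 3 with the Bst2+ libraries in the fit. Rag1, which encodes a subunit of the recombinase that assembles TCR genes (ENSMUSG00000061311, GRCm38 chromosome 2, 101638282 to 101649501), was at 72.9, 60.4 and 41.1 CPM in CD25+ progenitors and 2.76, 1.88 and 3.19 CPM in mature Tregs. Its partner Rag2 was at 5.02, 5.58 and 3.03 CPM and 0, 0.347 and 0.130 CPM. Dntt, the polymerase that adds bases at the joints, was at 90.04, 79.5 and 60.9 CPM and 9.21, 7.85 and 8.32 CPM. The 3 genes were 22.2-fold (adjusted p = 8.18e-04), 26.5-fold (adjusted p = 8.93e-05) and 9.09-fold (adjusted p = 1.01e-14) lower, with no overlap of libraries. The CD25+ gate was also above conventional cells, which averaged 2.58, 0.341 and 25.2 CPM.

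Cd24a, the surface marker that falls as single-positive cells mature, was at 92.4, 107 and 104 CPM in progenitors and 18.7, 22.1 and 20.03 CPM in mature Tregs (log2 -2.32 ± 0.13, adjusted p = 2.27e-18). Sox4, a factor of immature thymocytes, was at 393, 449.8 and 451 CPM and 118, 121 and 137 CPM (log2 -1.78 ± 0.08, adjusted p = 2.31e-21). Itm2a, induced during positive selection, fell by 1.47 ± 0.08 (adjusted p = 2.85e-18), and Tcf7, encoding TCF1, which opposes Foxp3, was 2.47-fold lower (adjusted p = 1.16e-20). Satb1, a chromatin organiser needed to make Tregs, fell by 0.39 ± 0.06 (adjusted p = 2.37e-06). In the other direction Gata3, the CD4 lineage factor, was higher by 0.98 ± 0.07 (adjusted p = 1.09e-14).

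Markers of 2 other kinds of cells were also summed. For a list of 15 CD8 and double-positive thymocyte markers the summed level was 364 to 429 CPM in CD25+ progenitors and 227 to 242 CPM in mature Tregs. Several members, Rag1, Rag2 and Dntt among them, are also on the immature list, so the sum is not independent of the genes above. Of the CD8 genes in it, Cd8b1 was not called. Among 14 tested members 8 were lower (57.1%) and 1 higher (7.14%), against 16.8% and 15.9% of all genes. No member was at 0 counts in either gate. For 14 gamma-delta T cell markers the sums were 92.3 to 99.5 CPM and 52.5 to 55.8 CPM, with 7 of 10 tested lower and 1 higher, and Ltb4r1 alone had no count in either gate. The constant gene Trgc2 was at 17.3, 14.2 and 13.99 CPM in progenitors and 1.67, 0.695 and 0.910 CPM in mature Tregs (log2 -3.81 ± 0.44, adjusted p = 2.59e-09), with the caution that the Trgc genes are near copies, while Trdc, the delta chain constant gene, was not called (0.19 ± 0.22, adjusted p = 0.555). The part of such cells in the lower immature genes was not tested.

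**Figure D4:**
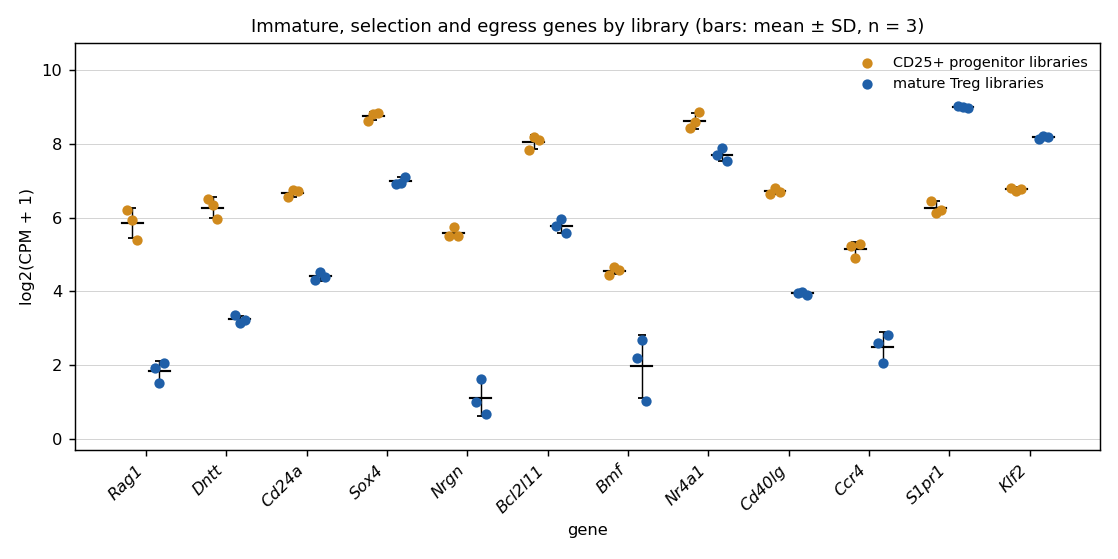
Levels of 12 genes of immature thymocytes, selection and exit in the 3 CD25+ progenitor and 3 mature Treg libraries, as log2(CPM + 1), with the mean and SD of each gate. Rag1, Dntt, Cd24a, Sox4, Nrgn, Bcl2l11, Bmf, Nr4a1, Cd40lg and Ccr4 lie lower and S1pr1 and Klf2 higher in every mature library.

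Genes of growth and division were lower in mature Tregs. Of 39 tested genes of replication licensing and S phase, 28 were lower (71.8%) and none higher, against 16.8% and 15.9% of all genes. Their median log2 fold change was -0.75. Of 40 tested genes of mitosis and G2, 31 were lower (77.5%) and 2 higher (5%), with a median of -1.38. Mcm6, a subunit of the replicative helicase, was at 182, 181 and 189.5 CPM in CD25+ progenitors and 115, 102 and 102 CPM in mature Tregs (log2 -0.79 ± 0.09, adjusted p = 6.48e-10). Rrm2, the ribonucleotide reductase subunit made in S phase, was at 24.8, 21.4 and 23.998 CPM and 8.03, 4.93 and 3.58 CPM (log2 -2.10 ± 0.23, adjusted p = 5.27e-10). Top2a, the topoisomerase of dividing cells, was at 182, 152 and 136 CPM and 55.6, 40.4 and 48.5 CPM (log2 -1.70 ± 0.10, adjusted p = 1.86e-16). The gates did not overlap in any of the 3. Kif11, a spindle motor, fell by 1.75 ± 0.17 (adjusted p = 4.86e-11), and the proliferation marker gene Mki67 fell by 1.46 ± 0.19 (adjusted p = 2.12e-04).

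The 2 lists differed in where the CD25+ gate stood. CD25+ progenitors had the highest mean of the 4 gates for 34 of 39 S phase genes but for only 7 of 40 mitosis genes, against 29.6% of all genes tested. For Top2a, conventional cells averaged 183 CPM. Smc4, a condensin subunit, was an exception among mitosis genes, at 895, 883 and 816 CPM in progenitors and 1828, 1884 and 1893 CPM in mature Tregs (log2 1.11 ± 0.06, adjusted p = 6.73e-19), and FOXP3lo progenitors stood higher still at 2668 CPM. Cenpa, a centromeric histone named after its values were seen, was the other higher member of that list.

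Ribosome biogenesis followed the same direction across its list. Of 55 tested ribosome biogenesis and MYC network genes, 46 were lower (83.6%) and 5 higher (9.09%), against 16.8% and 15.9% of all genes. Their median log2 fold change was -0.63. CD25+ progenitors had the highest mean of the 4 gates for 48 of them (87.3%), against 29.6% of all genes. Ncl, encoding nucleolin, was at 2169.9, 2127 and 2098 CPM in progenitors and 1359, 1424 and 1292 CPM in mature Tregs (log2 -0.65 ± 0.06, adjusted p = 2.98e-11). Utp20, a component of the small subunit processome, was at 178, 183 and 193 CPM and 75.7, 80.1 and 82.6 CPM (log2 -1.21 ± 0.08, adjusted p = 3.23e-15). Npm1 fell by 0.52 ± 0.06 (adjusted p = 2.68e-09) and Fbl, encoding fibrillarin, fell by 0.80 ± 0.09 (adjusted p = 2.35e-09). The 5 higher members, some named after their values were seen, belong to the MYC network: Mxd1, Mxi1, Mnt, Mxd4 and Myc. Mxd1, which represses MYC targets, was at 108, 116 and 115 CPM in progenitors and 313, 311 and 355 CPM in mature Tregs (log2 1.53 ± 0.08, adjusted p = 4.05e-19). Myc itself was higher by 0.35 ± 0.10 (adjusted p = 0.00444), a call lost without mature Treg replicate 40, at 0.24. With the Bst2+ libraries in the fit 2 of the list were higher.

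Of 26 tested genes of glycolysis and glucose uptake, 14 were lower (53.8%) and 5 higher (19.2%), against 16.8% and 15.9% of all genes. With the Bst2+ libraries in the fit 8 were lower and 2 higher. Pfkfb3, whose product stimulates phosphofructokinase, was at 149.6, 188 and 161 CPM in progenitors and 65.8, 59.8 and 62.2 CPM in mature Tregs (log2 -1.41 ± 0.10, adjusted p = 2.17e-15). Pgk1 fell by 1.16 ± 0.10 (adjusted p = 1.97e-12) and Pkm fell by 0.71 ± 0.06 (adjusted p = 6.41e-12), both glycolytic enzymes. The glucose transporter gene Slc2a3 went the other way, at 27.1, 29.2 and 24.5 CPM and 101.2, 88.9 and 89.2 CPM (log2 1.79 ± 0.11, adjusted p = 2.82e-17).

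**Figure D5:**
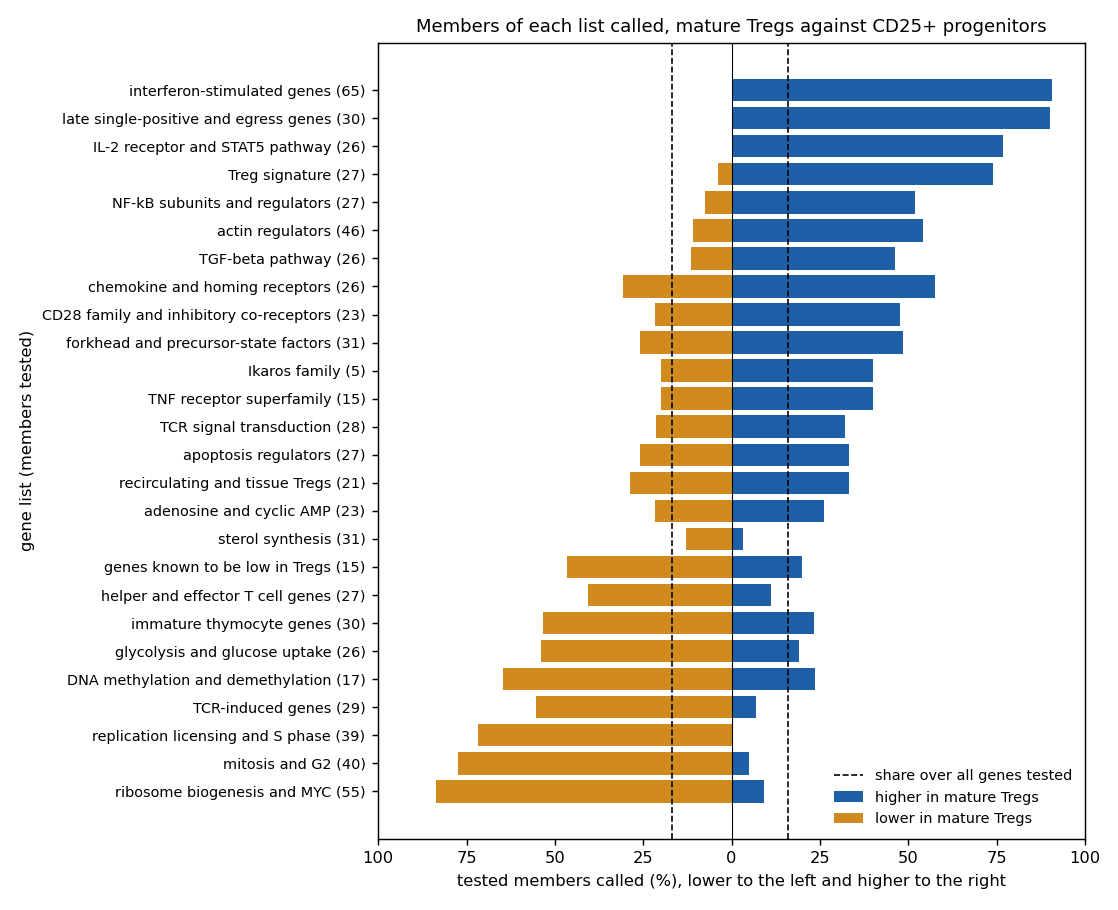
Share of the tested members of each gene list called higher (right) or lower (left) in mature Tregs than in CD25+ progenitors, with the number tested in brackets and dashed lines at the shares over all genes tested, 15.9% and 16.8%. Interferon-stimulated genes reach 90.8% higher and ribosome biogenesis and MYC genes 83.6% lower.

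Of 26 tested TGF-beta pathway genes (28 in all), 12 were higher (46.2%) and 3 lower (11.5%) in mature Tregs, against 15.9% and 16.8% of all genes. Their median log2 fold change was 0.31. Lrrc32, encoding GARP, which tethers latent TGF-beta to the Treg surface, was at 51.2, 45.4 and 57.4 CPM in CD25+ progenitors and 287, 281 and 295 CPM in mature Tregs (log2 2.49 ± 0.10, adjusted p = 5.84e-23). Itgb8, part of the integrin that releases it, was at 8.79, 7.66 and 7.77 CPM and 32.4, 17.8 and 40.6 CPM (log2 1.91 ± 0.23, adjusted p = 9.44e-09), though with the Bst2+ libraries in the fit it was not called (adjusted p = 0.113). Conventional cells averaged 1.604 and 0.217 CPM for these genes, below both gates. The receptor gene Tgfbr1 was higher by 1.08 ± 0.07 (adjusted p = 1.92e-15) and the feedback inhibitor Smad7 by 1.599 ± 0.09 (adjusted p = 9.00e-19), while Tgfbr3, an accessory receptor, fell by 1.61 ± 0.08 (adjusted p = 4.99e-19).

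Chemokine and homing receptors went both ways. Among 26 tested (33 in all), 15 were higher (57.7%) and 8 lower (30.8%), against 15.9% and 16.8% of all genes. Ccr4, a receptor that guides recently selected cells into the medulla, was at 36.5, 29.1 and 38.2 CPM in progenitors and 5.10, 3.13 and 6.05 CPM in mature Tregs (log2 -2.86 ± 0.21, adjusted p = 2.88e-14). Ccr8 fell by 1.27 ± 0.15 (adjusted p = 9.01e-09), and Gpr183, an oxysterol receptor, fell by 1.11 ± 0.12 (adjusted p = 3.86e-10). Ccr6 was at 9.66, 6.08 and 12.9 CPM and 37.99, 28.8 and 45.6 CPM, higher by 1.97 ± 0.24 (adjusted p = 1.49e-08, and 0.1 with the Bst2+ libraries in the fit), and the laminin receptor gene Itga6 was higher by 1.81 ± 0.08 (adjusted p = 2.77e-21).

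Genes of helper and effector T cells were lower more often than higher. Among 27 tested (37 in all), 11 were lower (40.7%) and 3 higher (11.1%), against 16.8% and 15.9% of all genes. Their median log2 fold change was -0.75. Cd40lg, the ligand with which helper T cells activate B cells and dendritic cells, was at 99.1, 111 and 103 CPM in CD25+ progenitors and 14.6, 14.9 and 13.98 CPM in mature Tregs. It was 7.20-fold lower with no overlap (log2 -2.85 ± 0.10, adjusted p = 5.80e-24), and progenitors stood near the 105 CPM mean of conventional cells. Id2, an inhibitor of E proteins, was at 20.9, 26.4 and 24.8 CPM and 5.44, 6.88 and 4.16 CPM (log2 -2.13 ± 0.18, adjusted p = 5.12e-13). Bcl6, the follicular helper factor, fell by 1.16 ± 0.12 (adjusted p = 9.84e-11), and Runx3, the CD8 and type 1 helper factor, was 2.29-fold lower (adjusted p = 1.02e-11). The chemokine gene Xcl1 was at 20.2, 20.99 and 24.4 CPM in progenitors and 1.84, 0.973 and 3.58 CPM in mature Tregs (log2 -3.34 ± 0.41, adjusted p = 5.88e-08). For the 21 markers of NKT, MAIT and innate-like cells, a list that also holds Xcl1, the summed level was 109 to 117 CPM in progenitors and 145 to 151 CPM in mature Tregs. Of its 9 tested members 3 were lower, Xcl1 among them, and 1 was higher, with a median log2 fold change of -0.49. The higher one was Slamf1, which makes up much of the sum, at 58.3, 53.9 and 48.6 CPM in progenitors and 113, 117 and 119 CPM in mature Tregs. Klra1, Klra6, Klra7 and Klrc1 of that list had no count in either gate, and the part of such cells was not tested.

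Pde3b, a phosphodiesterase that FOXP3 is known to repress, was at 131, 111 and 114 CPM in CD25+ progenitors and 45.2, 27.7 and 40.1 CPM in mature Tregs (log2 -1.66 ± 0.14, adjusted p = 1.72e-07). Entpd1, encoding the ecto-enzyme CD39, which starts the breakdown of extracellular ATP to adenosine, was at 0.310, 1.17 and 0.319 CPM and 5.02, 5.42 and 7.28 CPM (log2 3.27 ± 0.75, adjusted p = 5.81e-04), a low level in both. Of 23 tested adenosine and cyclic AMP genes (25 in all), 6 were higher (26.1%) and 5 lower (21.7%), against 15.9% and 16.8% of all genes. The median log2 fold change of this list was -0.13, so it did not move in 1 direction. With the Bst2+ libraries in the fit 2 were higher and 2 lower. Among 23 tested genes of the CD28 family and inhibitory co-receptors (24 in all), 11 were higher (47.8%) and 5 lower (21.7%), or 5 and 2 with the Bst2+ libraries. The lower count was also 3 without CD25+ progenitor replicate 42 or 43. Cd28 itself fell by 0.49 ± 0.06 (adjusted p = 6.16e-08), while the SLAM receptor gene Slamf1 was higher by 1.12 ± 0.10 (adjusted p = 7.39e-12).

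Ranked by fold change among called genes with no overlap between gates and at least 5 CPM in the higher gate, gate genes and unnamed clones left out, many of the 12 highest were low in progenitors. The highest was Ntn4, encoding the laminin-related netrin 4, at 0.310, 0.203 and 0.0532 CPM in progenitors and 17.5, 28.2 and 14.96 CPM in mature Tregs, 106-fold higher (adjusted p = 5.58e-16). Osgin1 came second, and Flicr and Socs2, described above, followed it. Rgs1, which dampens chemokine receptor signals, was at 8.73, 7.76 and 10.6 CPM and 176, 182 and 185 CPM, log2 4.32 ± 0.13 higher (adjusted p = 3.22e-27). Coro2a, of the actin-binding coronins, was at 6.81, 6.08 and 4.79 CPM and 110.2, 125 and 112 CPM, 19.7-fold higher (adjusted p = 5.20e-24). Hopx, a homeodomain cofactor known in peripherally induced Tregs, was at 3.41, 3.04 and 3.46 CPM and 56.3, 52.2 and 53.1 CPM, 16.3-fold higher (adjusted p = 1.04e-17). In these last 3 all mature libraries agreed closely. Osgin1, Kcnj15, Samd3, Tent5a and Calhm6, with Gpr83, completed the 12. Of these 5 beside Gpr83 the log2 fold changes ran from 3.75 for Calhm6 to 5.67 for Osgin1, and Calhm6 was not called with the Bst2+ libraries in the fit (adjusted p = 0.0739).

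By the same ranking the lowest 12 were Asb2, Epb41l4b, Nrgn, H19, Tmem132a, Tns3, Mef2c, Gna14, Cbfa2t3, Rag1, Ptk7 and Pou2af1, with log2 fold changes from -6.00 to -4.29, and Gna14 was not called with the Bst2+ libraries in the fit (adjusted p = 0.0705). Nrgn, encoding the calmodulin-binding protein neurogranin, was at 44.5, 52.98 and 44.6 CPM in progenitors and 1.00, 2.08 and 0.585 CPM in mature Tregs (log2 -5.27 ± 0.32, adjusted p = 4.33e-15). Pou2af1, a coactivator of octamer factors best known in B cells, was at 15.1, 16.7 and 14.8 CPM and 0.669, 0.834 and 0.845 CPM (log2 -4.29 ± 0.39, adjusted p = 5.31e-12). The B cell list of 24 markers summed to 73.1 to 84.6 CPM in progenitors and 61.8 to 67.6 CPM in mature Tregs, with 4 members, Cd22, Pax5 and Spib among them, at 0 counts in mature Tregs only and 2 at 0 counts in progenitors only. Of its 10 tested members 3 were lower (30%) and 1 higher (10%), against 16.8% and 15.9% of all genes. Cd74, the MHC class II invariant chain, was at 36.6, 45.9 and 45.6 CPM and 14.3, 13.3 and 17.4 CPM (log2 -1.51 ± 0.17, adjusted p = 2.59e-09). Ighm, the heavy chain of IgM, was the higher one, at 21.2, 17.9 and 19.2 CPM and 39.4, 39.3 and 33.3 CPM (log2 0.94 ± 0.14, adjusted p = 5.29e-07, and 0.295 with the Bst2+ libraries in the fit). The part of B cells in Pou2af1 was not tested. H19, an imprinted noncoding RNA, was at 15.4, 9.94 and 9.95 CPM in progenitors and 1.00, 0 and 0 CPM in mature Tregs (log2 -5.25 ± 0.76, adjusted p = 6.67e-06), and with DESeq2 it was not called (adjusted p = 0.103). Asb2, a ubiquitin ligase subunit, was at 8.55, 16.2 and 9.10 CPM in progenitors and 0.502, 0 and 0.065 CPM in mature Tregs (adjusted p = 4.08e-13), while conventional cells averaged 15.7 CPM.

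Markers of other cell types were also summed in each library, and the part of such cells in the differences above was not tested. To set beside the counts called, 15.9% of all genes were higher and 16.8% lower. For 29 markers of thymic epithelium and stroma the sum was 218 to 248 CPM in CD25+ progenitors and 334 to 342 CPM in mature Tregs, with Ccl21a, Cldn3, Dcn, Krt5 and Lum at 0 counts in both gates. Of its 9 tested members 2 were higher and 1 lower. The higher members, Pecam1, an adhesion protein of endothelium and leukocytes, at a mean of 117 and 208 CPM (adjusted p = 1.12e-11), and the endocytic receptor gene Ly75, at 62.8 and 82.9 CPM (adjusted p = 0.0026, and 0.0694 with the Bst2+ libraries in the fit), carried the difference in the sum. The epithelial gene Epcam was the lower one (log2 -0.87 ± 0.32, adjusted p = 0.032), a call lost with the Bst2+ libraries (adjusted p = 0.393), with DESeq2 (adjusted p = 0.0542) and without CD25+ progenitor replicate 42 (-0.80) or 43 (-0.86) or mature Treg replicate 42 (-0.49). For 14 erythroid markers it was 3.99 to 8.67 CPM and 19.1 to 22.5 CPM, with 11 members at 0 counts in both gates, among them the globin genes Hba-a1 and Hbb-bs. The difference in this sum was that of 1 gene, Gata1, a transcription factor of red cell precursors, at 4.52, 2.23 and 2.34 CPM and 22.3, 17.4 and 18.99 CPM (log2 2.70 ± 0.27, adjusted p = 7.98e-11). The only other tested member, the carbonic anhydrase gene Car2, was lower (log2 -1.65 ± 0.52, adjusted p = 0.0126), a call lost without CD25+ progenitor replicate 40 (-1.33) or mature Treg replicate 40 (-1.12), with the Bst2+ libraries in the fit (adjusted p = 0.209) and with only the 6 libraries compared (adjusted p = 0.0849). Plasmacytoid dendritic cell markers (14) summed to 311 to 320 CPM and 326 to 340 CPM, with Siglech, Klk1 and Cd300c at 0 counts in both gates. Of the 8 tested members 3 were higher and 2 lower. The ranges overlapped for 39 markers of dendritic cells and macrophages, at 132 to 159 CPM and 148 to 163 CPM. Among them, 9, including Lyz2, Csf3r and Tyrobp, were at 0 counts in both gates. A further 7, including Adgre1 and Itgax, were at 0 counts in mature Tregs only, and 5, including C1qa and Cd14, in progenitors only. Of the 10 tested members 1 was higher and 1 lower.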

How the data were processed

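RNA of sorted thymic T cells was sequenced, and the authors deposited raw counts of reads per gene, 1 column a library. Reads were trimmed with Trimmomatic 0.33 and aligned with HISAT2 2.1.0, per the submitters' processing notes, which also name featureCounts 1.4.6. Per the file headers, counting used featureCounts 1.6.2 with Ensembl 97 annotation of GRCm38, a mapping quality of at least 10 and the reverse-stranded setting. Reads shared by near-identical genes may therefore be lost or split. The files give Ensembl identifiers and positions. Symbols came from a RefSeq gene table of the same build, matched by position, for 35762 of 55573 genes.

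Counts of 12 libraries in 4 gates were filtered with filterByExpr, scaled by TMM and fitted with edgeR 4.0.16 (quasi-likelihood, robust, R 4.3.3) with a mean per gate, so that all 4 gates share the estimate of spread. The 3 Bst2+ libraries were left out of the main model. Adjusted p-values are Benjamini-Hochberg over 15648 genes. The fit was also run on simulated counts in which far fewer genes changed than were called here, and in the mature gate alone. That run therefore does not give the error rate of these calls. The members and gene lists were chosen with earlier results of these data known, and lists are therefore described by counts and medians without a test. Genes named are the sort genes, lead members of each list, up to 5 further called members of each list by adjusted p, and the 12 highest and 12 lowest fold changes, apart from those said to be named after their values were seen. Some genes that this rule names are not reported here.

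Deviations of same-numbered CD25+ and mature libraries from their gate means correlated at -0.010 to 0.032 over 3 pairs. Those of other numbers correlated at -0.031 to 0.017 over 6 pairs. Over the 4 gates the mean was 0.019 for 18 same-numbered pairs and -0.0095 for 36 other pairs. These values were small, so the numbers were not used as a block in the main fit. No 2 libraries of the same gate were duplicates by a chi-square test of their counts. Libraries of different gates were not compared in this way. Alternatives were RLE or upper quartile scaling, other filters, a replicate block, other sets of libraries, a test against a fold of 1.5, limma-voom (limma 3.58.1), DESeq2 1.42.0, and leaving out the 20 most abundant genes or each library in turn.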

Additional observations from a re-analysis of the deposited data

How the results depend on the processing

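With the Bst2+ libraries in the fit (all 15 libraries), 2096 genes were called, 1090 higher and 1006 lower, and a test against a fold of 1.5 left 1338, 688 higher and 650 lower. Leaving out 1 of the 6 libraries gave 4449 to 4802 calls, 2186 to 2345 higher and 2263 to 2506 lower. With the replicate block 5193 were called, 2518 higher and 2675 lower, of which 5041 were shared with the 5114. In that fit no call was lost on the named genes that were followed over the alternatives. Over all 23 alternatives, 40 of the 146 called genes followed were lost in at least 1. No alternative called a gene in the opposite direction.

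Hsp90ab1, and the uncalled genes Lck, Themis and Pmaip1, were not followed over the 23 alternatives. Of 146 other called genes named in the text, none changed sign in them. With all 15 libraries 15 were no longer called (Calhm6, Car2, Ccr6, Cd8a, Egr1, Epcam, Gna14, Ighm, Itgb8, Ly75, Mnt, Mxd4, Myc, Nt5e and Stat5a). The test against a fold of 1.5 dropped 33, all with changes under 2-fold except Cd8a and Car2, among them Icos, Zap70, Lat, Plcg1, Swap70, Ncl and Npm1. Some of the uncalled genes that were followed changed sign when 1 library was left out, and their log2 fold changes then ran from -0.062 to 0.271 for Bst2, -0.124 to 0.0051 for Cd5, -0.0535 to 0.114 for Cd69, -0.102 to 0.0173 for Cd8b1, -0.0769 to 0.168 for Egr2, -0.104 to 0.0466 for Ikzf2, -0.0534 to 0.0628 for Il2rg, -0.112 to 0.0473 for Nfkb2 and -0.0829 to 0.0336 for Trbc2. The cause was not tested. With 3 libraries a gate, low genes such as Il2 rest on few counts.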

Other observations

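Actin regulators were higher in mature Tregs more often than lower, with 25 of 46 tested higher and 5 lower and a median log2 fold change of 0.27, against 15.9% higher and 16.8% lower over all genes. Capg, which caps actin filaments, was at 16.2, 12.2 and 15.2 CPM in CD25+ progenitor libraries 40, 42 and 43 and at 59.6, 60.7 and 63.7 CPM in the mature Treg libraries (log2 2.08 ± 0.16, adjusted p = 1.31e-13, edgeR). Dock10, an exchange factor for small GTPases, was higher by 0.80 ± 0.07 (adjusted p = 1.90e-12), and Rhoh, a GTPase of blood cells, by 0.77 ± 0.07 (adjusted p = 4.02e-12). The lower count was 3 with the Bst2+ libraries in the fit, and also without mature Treg replicate 40 or 43 or CD25+ progenitor replicate 42.

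Of 17 tested genes of DNA methylation and demethylation, 11 were lower (64.7%) and 4 higher (23.5%), against 16.8% and 15.9% of all genes. With the Bst2+ libraries in the fit 6 were lower. The Foxp3 gene is known to be demethylated in stable Tregs by TET enzymes, whose genes went both ways. Tet2 was at 364, 374 and 347 CPM in progenitors and 194, 199 and 245 CPM in mature Tregs (log2 -0.77 ± 0.07, adjusted p = 4.86e-11), and Tet3 was at 460.1, 438 and 450.3 CPM and 654, 605 and 618 CPM (log2 0.48 ± 0.06, adjusted p = 1.20e-07). Dnmt1, the maintenance methyltransferase, fell by 0.53 ± 0.08 (adjusted p = 6.74e-07), and Uhrf1, which brings it to replicating DNA, fell by 1.68 ± 0.14 (adjusted p = 1.25e-12).

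Among 21 tested genes used to mark Tregs that have returned to the thymus from the periphery, 7 were higher (33.3%) and 6 lower (28.6%). The shares over all genes were 15.9% and 16.8%. With the Bst2+ libraries in the fit 3 were higher. Ahnak, a large scaffold protein of activated T cells, was at 28.5, 30.5 and 28.4 CPM in progenitors and 187, 167 and 174 CPM in mature Tregs (log2 2.59 ± 0.10, adjusted p = 1.25e-22), and Vim, encoding vimentin, was higher by 0.56 ± 0.06 (adjusted p = 3.34e-09). Of the members given above Ccr6 was higher and Id2, Gpr183 and Ccr8 were lower.

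Dissociation and immediate early genes summed to 5732 to 6247 CPM in progenitors and 5118 to 5768 CPM in mature Tregs, ranges that overlap. Of 25 tested members, however, 15 were higher (60%) and 3 lower (12%), against 15.9% and 16.8% of all genes. Hsp90ab1, a lower member, makes up much of the sum, so the overlap of the sums does not describe the other members. This gene was at 3112, 3481 and 3457 CPM in progenitors and 1840, 2202 and 1893 CPM in mature Tregs (log2 -0.76 ± 0.07, adjusted p = 4.92e-12). Jun, an AP-1 subunit, was at 11.3, 12.98 and 12.03 CPM in progenitors and 67.1, 125 and 83.1 CPM in mature Tregs (log2 2.92 ± 0.46, adjusted p = 0.00114). Of its AP-1 partners, Fos was at 4.64, 6.59 and 8.14 CPM and 9.96, 7.37 and 8.13 CPM (log2 0.39 ± 0.27, adjusted p = 0.304) and Fosb was at 2.04, 2.64 and 3.83 CPM and 1.59, 1.67 and 1.56 CPM (log2 -0.82 ± 0.56, adjusted p = 0.285), and neither was called.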
